A study of Mus musculus with 50 samples.

Results

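The genes described here are 10 genes of the wound matrix: Fn1, Vcan, Tnc, Postn, Cthrc1, Sparc, Thbs2, Fndc1, Fbn1 and Eln. They were chosen by name from the 21954 genes of the digit tables, with earlier results of these data known. Their levels were followed in 41 digits, over all time points of 2 groups of amputated mouse digits. All digits came from male C57Bl/6 mice of 9 to 10 weeks in which the distal phalanx (P3) of hindlimb digit 3 was amputated on both sides, and each library is the wound bed of 1 digit, a mixture of cell types. The 29 non-regenerative digits have a labelled amputation level of 60% to 80% and were taken at 0, 3, 6, 12 and 24 hours and at 3, 7, 14 and 21 days, 3 digits at a time except for 5 on day 7. Of these, 17 are labelled above 67%, 1 at 67% and 11 below it. The 12 intermediate digits have a level of 41% to 55% and were taken at 0 and 24 hours and at 14 and 21 days, with 3 digits each. Bone marrow-derived macrophages of female C57BL/6 mice in M0, M1 and M2 states, with 3 cultures each, served to show which of the genes these cells express. By the study's methods, M1 cultures received IFN-gamma and LPS and M2 cultures IL-4, both for 24 hours, and M0 cultures had basal medium. Digits are numbered within a group in the order of their accessions, and although the study's methods describe several mice at each time point, the labels do not say which digits came from the same mouse, so the p-values measure only the spread between these libraries.

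After an injury, a provisional matrix of fibrin, fibronectin and hyaluronan with versican fills the wound and carries the cells that enter it. Matricellular proteins such as tenascin-C, periostin, SPARC and thrombospondin-2 are then secreted into this matrix, where they act on cell adhesion, growth factors and collagen assembly rather than as a scaffold. Elastic fibres, with fibrillin-1 microfibrils around a core of elastin, belong to the mature dermis and vessel walls and are known to be replaced slowly after a wound.

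Some features of the libraries touch the values below. Levels are given as normalized TPM, meaning TPM that were rescaled library by library with median ratios, so they can be compared between genes as well as between digits. In non-regenerative 14 days replicate 2 the normalized TPM summed to 3362791, against at most 1434851 in the other digits. Results that rest on it are given with and without it where both were computed. The total of expected counts was between 1468749 and 13011782 per digit with a median of 6835347. The titles carry a date: 24 digits fall in an earlier period (July to August 2015) and 17 in a later one (November 2015 to January 2016), and the labels do not say what event it marks. In 5 pairs of digits from different groups the titles share mark, date and side. In 1 of these pairs, intermediate 14 days replicate 1 and non-regenerative 14 days replicate 3, the time is also the same, and their counts differed by a chi-square of 71.1 per degree of freedom, far above sampling noise.

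A gene was called changed at a Benjamini-Hochberg adjusted p under 0.05 over all genes tested with edgeR's quasi-likelihood test and a fold above 2 between mean normalized counts (1 added to each), with the digits of the 2 groups compared alone in the fit. All comparisons with 0 hours within a group share the same 3 digits at 0 hours. Lack of overlap with these digits was common among the 13691 genes examined for it. In the non-regenerative digits 15.9% lay wholly above and 18.1% wholly below at 24 hours, and 13.3% and 14.5% at 6 hours. These shares were 17.6% and 18.7% at 12 hours and 8.49% and 7.54% at 3 days. At 7, 14 and 21 days 2.72%, 10.3% and 6.29% lay wholly above. In the intermediate digits 9.3% did so at 14 days and 10.8% at 21 days, and at 24 hours 9.47% lay wholly above and 11.3% wholly below. Lack of overlap by itself is thus weak support for a change in a single gene. In such bulk tissue, fewer cells of a type and less RNA per cell cannot be told apart.

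**Figure D1:**
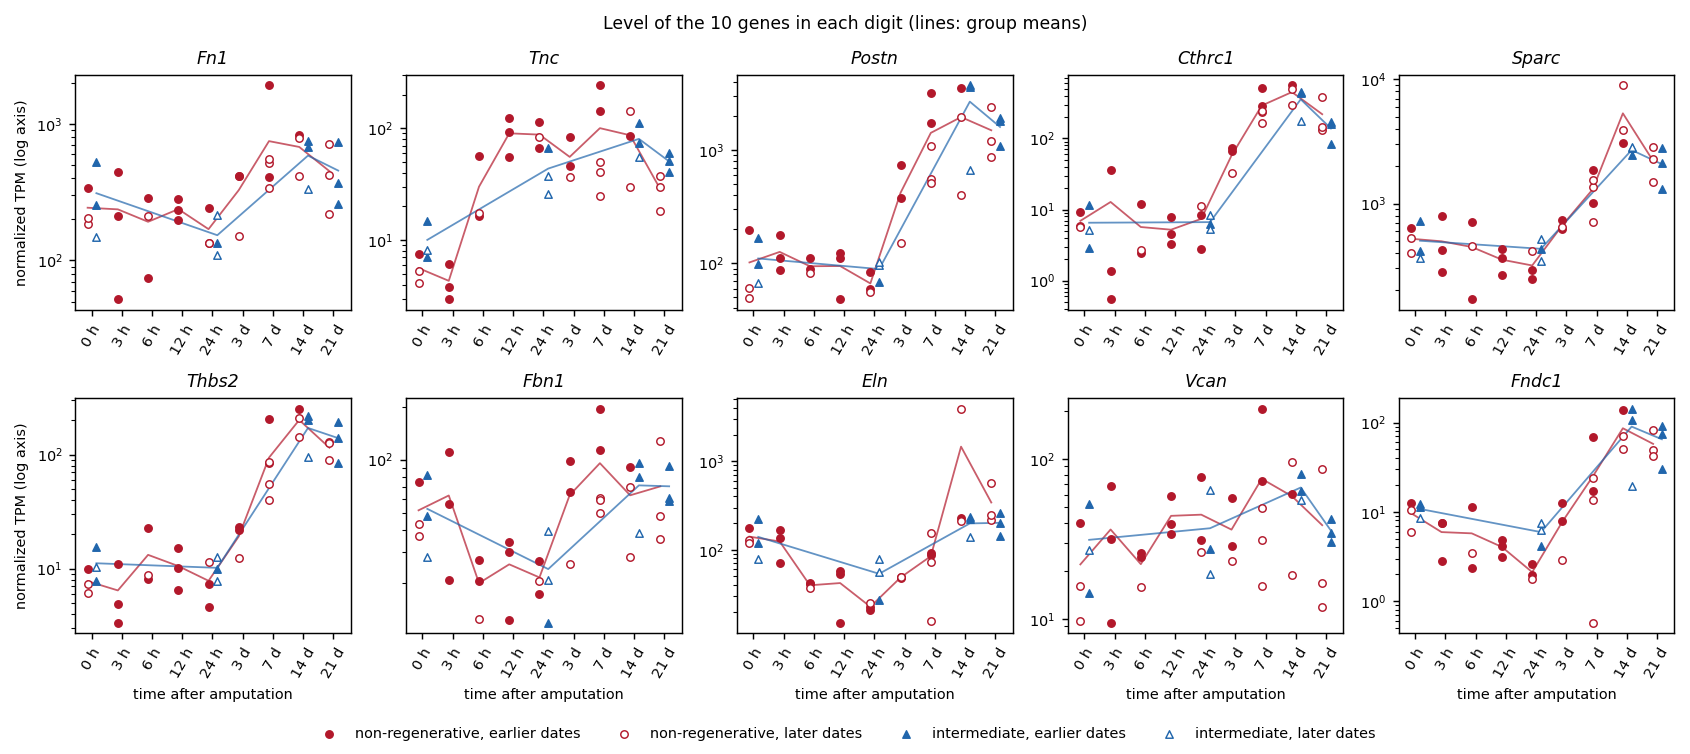
Normalized TPM (log axis) of the 10 genes in each of the 41 digits against time after amputation, with 1 panel per gene. Red circles are non-regenerative and blue triangles intermediate digits, filled for the earlier and open for the later dates, and lines join group means. Tnc is higher from 6 hours on, Cthrc1, Thbs2, Postn, Sparc and Fndc1 are high at 14 and 21 days, and the mean of Eln is lowest at 24 hours in both groups.

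The course over time differed between genes. In the non-regenerative digits, 7 of the 10 genes changed over the 9 time points in edgeR's F-test, against 7.62% of all genes tested (1100 of 14434): Cthrc1 (adjusted p = 1.78e-08), Thbs2 (1.48e-07), Sparc (2.02e-06), Eln (1.68e-05), Postn (4.96e-05), Tnc (0.000304) and Fndc1 (0.000617). Fbn1 (adjusted p = 0.0840), Fn1 (0.190) and Vcan (0.555) did not pass the same edgeR test. Over the 4 time points of the intermediate digits 6 genes passed, against 6.21% of all genes: Cthrc1 and Thbs2 (adjusted p = 0.000101 each, edgeR), Postn and Sparc (0.000434 each), Fndc1 (0.00157) and Tnc (0.00526). There Eln (0.0507), Fn1 (0.0895), Fbn1 (0.151) and Vcan (0.260) did not pass.

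Fn1 encodes fibronectin, the adhesive glycoprotein of the provisional matrix. It was among the most abundant of the 10 genes already at 0 hours, with 339, 186 and 206 normalized TPM in the 3 non-regenerative and 148, 255 and 531 in the 3 intermediate digits. At 24 hours it stood at 134, 134 and 241 in the non-regenerative and 134, 111 and 215 in the intermediate digits, with overlap with 0 hours in both groups. At 14 days the non-regenerative digits held 838, 418 and 784, all above their 0-hour digits, and the intermediate digits 336, 752 and 675, which overlapped theirs. Neither difference passed the test, with a log2 fold change of 1.5 (SE 0.63, edgeR adjusted p = 0.634) in the non-regenerative and 0.95 (SE 0.46, adjusted p = 0.425) in the intermediate digits. The value of 418 belongs to replicate 2, the digit with the high normalized TPM sum. When the TPM of each digit are given a common sum, it lies below all non-regenerative digits at 0 hours. The highest Fn1 value of any digit was 1928, in replicate 4 at 7 days, while the other 4 digits of that day held between 338 and 557. With all digits of the 2 groups in the fit, edgeR did not call Fn1 in any comparison of time points or of the digit groups. Between 24 hours and 14 days it was called, among other settings, without non-regenerative 14 days replicate 2 (log2 fold change 2.15, edgeR adjusted p = 0.0160), without intermediate 14 days replicate 1 (2.20, adjusted p = 0.0185) and, in the intermediate digits, by DESeq2 (1.90, adjusted p = 1.63e-05). Between 24 hours and 3 days it was called without 3 days replicate 2 (1.15, edgeR adjusted p = 0.0487).

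Vcan encodes versican, a large proteoglycan that binds hyaluronan. Its level ran from 9.70 to 40.1 in the non-regenerative digits at 0 hours, from 26.2 to 77.7 at 24 hours, from 16.1 to 207 at 7 days and from 11.9 to 87.2 at 21 days. Intermediate digits held from 14.7 to 52.2 at 0 hours and from 55.2 to 81.0 at 14 days. The largest log2 difference from 0 hours was 1.74 (SE 0.66, edgeR adjusted p = 0.924) at 7 days, and with all digits of the 2 groups in the fit no comparison of time points or of the digit groups called it. It was called at 12 and 24 hours without non-regenerative 0 hours replicate 1 (edgeR adjusted p = 0.00976 and 0.0251) and at 14 days without intermediate 0 hours replicate 3 (0.0437). Vcan had the smallest ratio between highest and lowest group mean of the 10 genes, 3.43 for non-regenerative and 2.1 for intermediate digits.

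Tnc encodes tenascin-C, a hexameric matricellular protein that is scarce in most adult tissue and produced at wound edges. It was low at 0 hours (7.47, 5.25 and 4.14 normalized TPM) and at 3 hours (2.96, 3.84 and 6.18) in the non-regenerative digits. It then stood at 56.2, 16.6 and 17.3 at 6 hours, 55.2, 92.0 and 123 at 12 hours and 66.7, 84.0 and 113 at 24 hours. All digits from 6 hours to 21 days lay above all digits at 0 hours. Tnc rose by a log2 fold change of 2.50 (SE 0.49, edgeR adjusted p = 0.0284) at 6 hours, 4.11 (SE 0.35, adjusted p = 0.000551) at 12 hours and 4.08 (SE 0.30, adjusted p = 0.000215) at 24 hours, the last being 16.9-fold. The call at 6 hours is lost without 6 hours replicate 2 (edgeR adjusted p = 0.0508) or without 0 hours replicate 2 or 3 (0.0994 and 0.119), whereas the calls at 12 and 24 hours held whichever digit was left out.

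The later levels of Tnc spread widely. At 3 days the digits held 84.3, 36.4 and 45.8, and the rise against 0 hours was 3.36 on the log2 scale (SE 0.37, edgeR adjusted p = 0.00571). At 7 days they held 144, 24.8, 40.9, 243 and 49.7, and at 14 days 85.9, 30.1 and 144. The 2 highest digits at 7 days were the 2 of the earlier dates. Tnc was 4.22 (SE 0.82, edgeR adjusted p = 0.156) above 0 hours at 7 days and 3.88 (SE 0.80, adjusted p = 0.223) at 14 days on the log2 scale, and both differences were called with all 41 digits in 1 fit (edgeR adjusted p = 0.000369 and 0.00103). At 21 days the levels were 29.9, 18.2 and 37.4, still above 0 hours (log2 fold change 2.37, SE 0.32, edgeR adjusted p = 0.0299). That last call was lost without any of the 0-hour digits, the first or the third 21-day digit, and in the fit of all 41 digits (adjusted p = 0.180).

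Tnc in the intermediate digits held 8.24, 7.03 and 14.9 at 0 hours and 67.4, 25.8 and 37.8 at 24 hours, and the groups did not overlap. The difference at 24 hours, 2.15 on the log2 scale (SE 0.40), did not pass edgeR's test (adjusted p = 0.118) and was called by DESeq2 (adjusted p = 7.09e-06). At 14 days the levels were 55.0, 112 and 74.6 and at 21 days 51.0, 40.7 and 60.1, with rises of 2.97 (SE 0.36, edgeR adjusted p = 0.00761) and 2.32 (SE 0.28, adjusted p = 0.00475) on the log2 scale. Every digit of both days lay above every digit at 0 hours. The 14-day call was lost without 0 hours replicate 2 (edgeR adjusted p = 0.0619), and the 21-day call was not made in the fit of all 41 digits (0.254).

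Cthrc1 encodes collagen triple helix repeat containing 1, a secreted protein found in injured arteries and in fibroblasts that deposit matrix. It was at 9.17, 5.95 and 5.71 normalized TPM in the non-regenerative digits at 0 hours and in the 24-hour digits at 2.77, 11.1 and 8.38 (log2 difference 0.31, SE 0.55, edgeR adjusted p = 0.736). At 3 days it stood at 74.3, 32.3 and 65.8, at 7 days at 285, 167, 235, 518 and 245, at 14 days at 560, 492 and 296, and at 21 days at 130, 144 and 384. All digits from 3 days on lay above all digits at 0 hours. Cthrc1 rose by 3.17 (SE 0.40, edgeR adjusted p = 0.00959) at 3 days, 5.54 (SE 0.51, adjusted p = 0.0124) at 7 days and 5.14 (SE 0.53, adjusted p = 0.0135) at 21 days on the log2 scale, that is 9.03-fold, 46.6-fold and 35.3-fold. At 14 days the difference was 5.94 (SE 0.63), with an edgeR adjusted p of 0.0741 that fell to 0.00300 without replicate 2. The calls at 3, 7 and 21 days were each lost on leaving out some single digit (edgeR adjusted p up to 0.0635, 0.122 and 0.119), and all 3 were made in the fit of all 41 digits.

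Cthrc1 in the intermediate digits was at 5.24, 2.87 and 11.5 at 0 hours and 6.29, 5.25 and 8.42 at 24 hours. The 14-day digits held 174, 436 and 455, and the 21-day digits 160, 84.0 and 169. The rise was 61.5-fold at 14 days (log2 fold change 5.94, SE 0.63, edgeR adjusted p = 0.00494) and 24.5-fold at 21 days (4.62, SE 0.51, adjusted p = 0.00354). Of the 10 genes, Cthrc1 had the largest rise against 0 hours at both times.

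Postn encodes periostin, which binds collagen and other matricellular proteins and is abundant in periosteum, ligament and healing skin. In the non-regenerative digits it was at 196, 49.4 and 60.1 at 0 hours and 59.7, 55.7 and 84.2 at 24 hours, and it then reached 379, 151 and 733 at 3 days. At 7 days the digits held 1751, 1096, 561, 3184 and 513, at 14 days 3530, 400 and 1948, and at 21 days 874, 1204 and 2415. Each digit from 7 days on was above the highest 0-hour digit, but the range within a day was wide. The value of 400 belongs to replicate 2, the digit with the high normalized TPM sum. When the TPM of each digit are given a common sum, it lies below the highest 0-hour digit. The log2 differences from 0 hours were 3.62 (SE 0.87) at 7 days, 3.97 (SE 1.1) at 14 days and 3.60 (SE 0.62) at 21 days, and none was called (edgeR adjusted p = 0.315, 0.338 and 0.0744). With all 41 digits in 1 fit all 3 were called (edgeR adjusted p = 0.00907, 0.00309 and 0.0306), and without replicate 2 the 14-day difference was called with the 2 groups alone (adjusted p = 0.0264).

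For Postn the intermediate digits were at 66.7, 98.7 and 166 at 0 hours and 67.9, 96.0 and 103 at 24 hours. Values of 668, 3630 and 3743 followed after 14 days, and of 1793, 1095 and 1919 after 21 days. It rose 19.9-fold at 14 days (log2 fold change 4.32, SE 0.64, edgeR adjusted p = 0.0151) and 13.5-fold at 21 days (3.75, SE 0.38, adjusted p = 0.00271). The late digits did not overlap with those at 0 hours. The 14-day call was lost on leaving out any of 4 of the 6 digits (edgeR adjusted p up to 0.126), and the 21-day call held whichever digit was left out.

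Thbs2 encodes thrombospondin-2, a matricellular protein that restrains vessel growth and affects how collagen fibrils form. Its non-regenerative digits held 9.83, 7.30 and 6.10 at 0 hours, 4.60, 11.5 and 7.33 at 24 hours and 23.3, 12.3 and 21.8 at 3 days. The levels then were 84.4, 86.8, 55.5, 203 and 39.6 at 7 days, 253, 141 and 209 at 14 days and 129, 90.4 and 125 at 21 days, with no overlap with 0 hours from 3 days on. At 21 days Thbs2 rose 14.8-fold (log2 fold change 3.89, SE 0.26, edgeR adjusted p = 0.00241), a call that held whichever digit was left out. The differences at 7 days, 3.65 (SE 0.57), and 14 days, 4.54 (SE 0.64), were not called (edgeR adjusted p = 0.0996 and 0.167) and were called in the fit of all 41 digits (0.000112 and 1.03e-05).

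Thbs2 in the intermediate digits was at 10.3, 7.70 and 15.3 at 0 hours and 9.91, 7.82 and 12.7 at 24 hours. The 14-day digits held 94.8, 217 and 201, and the 21-day digits 140, 84.5 and 193. It rose 15.2-fold at 14 days (log2 fold change 3.93, SE 0.39, edgeR adjusted p = 0.00386) and 12.4-fold at 21 days (3.63, SE 0.34, adjusted p = 0.00196). Both calls held whichever digit was left out.

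Sparc encodes osteonectin, a collagen-binding glycoprotein abundant in bone and in remodelling tissue. It had the highest level of the 10 genes at most times, with 631, 399 and 530 normalized TPM at 0 hours and 246, 414 and 290 at 24 hours in the non-regenerative digits. At 7 days it was at 1015, 704, 1364, 1868 and 1547, at 14 days at 3071, 8979 and 3942, and at 21 days at 2296, 1489 and 2829. The value of 8979 belongs to the digit with the high normalized TPM sum and becomes 2670 when the TPM of each digit are given a common sum. Sparc rose 4.20-fold at 21 days (log2 fold change 2.07, SE 0.31, edgeR adjusted p = 0.0423) and was not called at 14 days (3.0, SE 0.60, adjusted p = 0.223). Without replicate 2 the 14-day difference was 2.70 and was called (edgeR adjusted p = 0.0118), and the 21-day call was lost on leaving out any of 5 of the 6 digits (adjusted p up to 0.262).

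Sparc in the intermediate digits was at 362, 414 and 729 at 0 hours. Its 14-day digits held 2848, 2783 and 2464, and its 21-day digits 2129, 1307 and 2793. The rises were 5.30-fold (log2 fold change 2.41, SE 0.28, edgeR adjusted p = 0.00666) and 4.08-fold (2.03, SE 0.32, adjusted p = 0.0151). The 3 intermediate 14-day digits lay within a narrow range, and none of the late digits overlapped with 0 hours. The 14-day call was lost without 0 hours replicate 2 (edgeR adjusted p = 0.0660), and the 21-day call without that digit (0.106) or without 21 days replicate 1 (0.0730) or 3 (0.0751).

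Fndc1 encodes a secreted protein with fibronectin type III domains. It moved in both directions in the non-regenerative digits. From 12.5, 5.88 and 10.5 at 0 hours it was at 1.95, 1.77 and 2.61 at 24 hours and at 17.3, 0.574, 13.6, 68.3 and 24 at 7 days. Levels of 137, 50.9 and 71.2 followed after 14 days, and of 48.7, 42.5 and 81.9 after 21 days. The 24-hour digits were all below and the 14-day and 21-day digits all above the 0-hour digits. Fndc1 fell 5.36-fold at 24 hours (log2 fold change -2.42, SE 0.42, edgeR adjusted p = 0.00755), whichever digit was left out, and rose 6.12-fold at 21 days (2.61, SE 0.33, adjusted p = 0.0247). The 21-day call was lost on leaving out any of 4 of the 6 digits (edgeR adjusted p up to 0.193). In the fit of all 41 digits neither the fall nor this rise was called (edgeR adjusted p = 0.146 and 0.491), while the 14-day difference of 3.25 was (0.0195).

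The intermediate digits had Fndc1 at 8.61, 12.2 and 11.5 at 0 hours and 4.11, 6.28 and 7.40 at 24 hours. Values of 19.7, 107 and 143 followed after 14 days, and of 74.1, 30.1 and 90.7 after 21 days. It rose by 2.87 (SE 0.51, edgeR adjusted p = 0.0305) at 14 days and 2.74 (SE 0.36, adjusted p = 0.00635) at 21 days on the log2 scale. The 14-day call was lost on leaving out any of 5 of the 6 digits (edgeR adjusted p up to 0.179) and the 21-day call without 0 hours replicate 2 (0.0592), and neither call was made in the fit of all 41 digits (0.192 and 0.395). The 24-hour digits were all below the 0-hour digits, with a log2 difference of -0.87 (SE 0.23) that did not pass (edgeR adjusted p = 0.166).

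Fbn1 encodes fibrillin-1, the main protein of the microfibrils on which elastic fibres form. In the non-regenerative digits it was at 74.6, 43.3 and 36.7 at 0 hours and 17.4, 20.4 and 26.6 at 24 hours, with no overlap. It fell by 1.19 on the log2 scale at 24 hours (SE 0.29, edgeR adjusted p = 0.0269), a call lost on leaving out any of 4 of the 6 digits and in the fit of all 41 digits (adjusted p = 0.394). From 3 days on its values overlapped those of 0 hours, running from 25.6 to 97.9 at 3 days, from 49.6 to 195 at 7 days and from 28.0 to 90.5 at 14 days. The intermediate digits held 27.9, 47.7 and 82.0 at 0 hours and 11.9, 20.7 and 39.2 at 24 hours, which overlapped (log2 difference -1.10, SE 0.48, edgeR adjusted p = 0.321). Fbn1 overlaps a gene on the opposite strand, Gm9913, whose reads could not be told apart from its own without strand.

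Eln encodes tropoelastin, the soluble precursor of elastin. Its non-regenerative digits held 176, 127 and 119 at 0 hours and 165, 71.4 and 135 at 3 hours. They were at 41.8, 40.6 and 36.5 at 6 hours, 15.0, 58.2 and 52.8 at 12 hours, 21, 24.7 and 22.3 at 24 hours and 47.8, 48.9 and 49.0 at 3 days. Every digit from 6 hours to 3 days lay below every digit at 0 hours. Eln fell 3.37-fold at 6 hours (log2 fold change -1.75, SE 0.20, edgeR adjusted p = 0.00455), 3.18-fold at 12 hours (-1.67, SE 0.43, adjusted p = 0.0318), 6.25-fold at 24 hours (-2.64, SE 0.20, adjusted p = 0.000235) and 2.90-fold at 3 days (-1.54, SE 0.20, adjusted p = 0.0140). The calls at 12 hours and 3 days were each lost on leaving out any of 3 of the 6 digits. The calls at 6 and 24 hours held whichever digit was left out, and only that at 24 hours was made in the fit of all 41 digits (edgeR adjusted p = 0.0255).

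At 7 days Eln ran from 15.8 to 155, with a median of 86.6, and overlapped with 0 hours. At 14 days the digits held 231, 3947 and 214 and at 21 days 217, 247 and 562, all above 0 hours. The value of 3947, again in replicate 2, becomes 1174 when the TPM of each digit are given a common sum, still above every other digit. The log2 difference at 14 days was 2.82 (SE 1.05, edgeR adjusted p = 0.586), it was called in the fit of all 41 digits (2.79, adjusted p = 0.0126) and not with that digit left out. Eln in the intermediate digits was at 77.6, 118 and 223 at 0 hours and 26.8, 55.8 and 77.7 at 24 hours. The 14-day digits held 138, 233 and 224, and the 21-day digits 264, 143 and 198. Their log2 difference at 24 hours was -1.36 (SE 0.45, edgeR adjusted p = 0.234), which DESeq2 called (adjusted p = 0.0267).

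**Figure D2:**
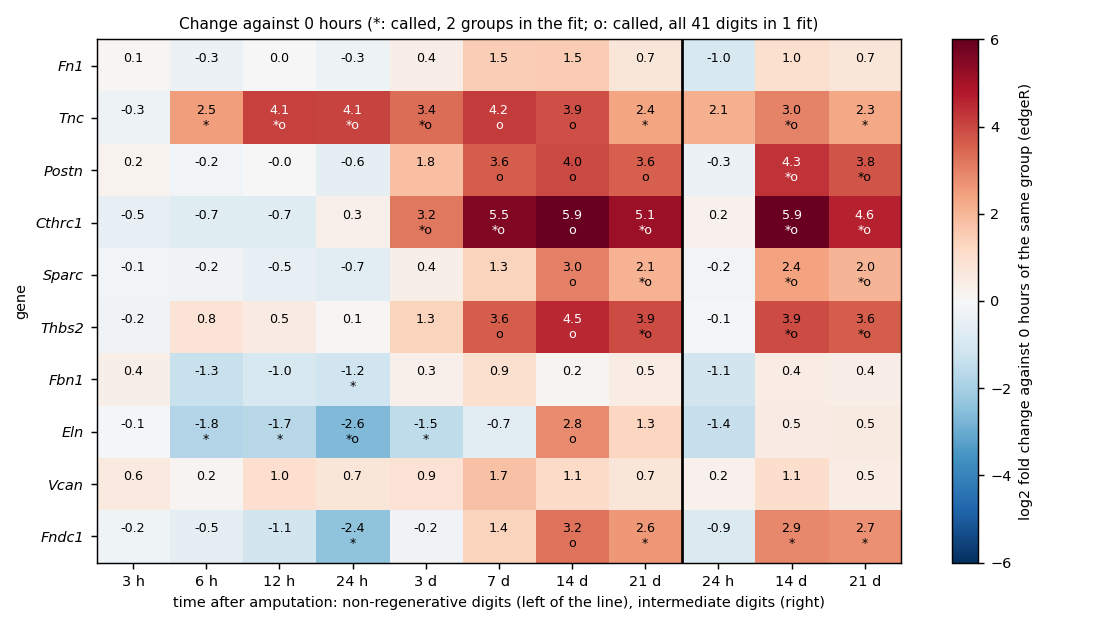
Log2 fold change of the 10 genes against 0 hours at each later time point, in non-regenerative (left) and intermediate (right) digits, as a colour scale. A star marks a call with the 2 groups in the fit and a circle a call with all 41 digits in 1 fit. Tnc is called at 6, 12 and 24 hours, Eln is lower from 6 hours to 3 days, and Cthrc1 has the largest value of the 10 genes at 7, 14 and 21 days.

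Counted by time point, 2 of the 10 genes were called in the non-regenerative digits at 6 hours (4.85% of all genes tested), 2 at 12 hours (11.4%) and 4 at 24 hours (10.7%). Later, 3 were called at 3 days (0.723%), 1 after 7 days (0.0537%) and 5 after 21 days (0.452%). The count of 2 of 10 at 12 hours is close to its background, while those from 3 days on stand beside backgrounds under 1%. Since the 10 genes were chosen with earlier results of these data known, an excess over these shares is no independent support. At 3 hours edgeR called none of the 10 and none of 12562 genes, with 1362 at an unadjusted p under 0.05 but none of the 10 among them, while DESeq2 called 1.17% of its genes and none of the 10. At 14 days edgeR called none of 13567 genes, with 1044 of all genes and 8 of the 10 at an unadjusted p under 0.05, and DESeq2 called 6 of the 10 beside 1.99% of all genes. Without 14 days replicate 2, edgeR called 6 of the 10 with the 2 groups alone (1.92% of all genes), namely Cthrc1 (6.08, adjusted p = 0.00300), Thbs2 (4.86, 0.00300), Tnc (4.34, 0.00442), Postn, Fndc1 (3.60, 0.00663) and Sparc. With 40 digits in 1 fit the same 6 were called beside 0.895% of all genes.

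In the fit of all 41 digits the counts for the non-regenerative digits were 0 after 3 hours (0.00667% of all genes) and 6 hours (0.774%), 1 after 12 hours (2.81%) and 2 after 24 hours (2.21%). They were 2 after 3 days (0.233%), 4 after 7 days (1.09%), 7 after 14 days (4.87%) and 4 after 21 days (0.22%). The intermediate digits had 0 after 24 hours (0.133%), 5 after 14 days (0.373%) and 4 after 21 days (0.167%) in that fit.

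In the intermediate digits 6 of the 10 genes were called at 14 days (1.68% of all genes) and 6 at 21 days (1.39%), all of them higher, and these were Tnc, Postn, Cthrc1, Sparc, Thbs2 and Fndc1 at both times. At 24 hours none was called beside 0.0152% of all genes (2 of 13172), with 2034 genes at an unadjusted p under 0.05, and DESeq2 called 2 of the 10 (Tnc and Eln) beside 2.08%. Leaving out single intermediate digits brought the count at 14 days to between 2 and 6, and at 21 days to between 4 and 6. The median log2 difference of the 10 genes at 14 days was 2.64, beside -0.01 over all genes, and in the non-regenerative digits 3.12 beside 0.02.

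Between 24 hours and 3 days in the non-regenerative digits, 5 of the 10 genes rose (2.76% of all genes): Cthrc1 (log2 fold change 2.90, edgeR adjusted p = 0.0204), Postn (2.42, 0.0351), Fndc1 (2.25, 0.0455), Eln (1.14, 0.0168) and Sparc (1.06, 0.0422). Tnc was -0.68 over the same interval (edgeR adjusted p = 0.297). None of the 5 was called in the fit of all 41 digits, which called 0.113% of all genes. Between 24 hours and 14 days in the intermediate digits 5 rose (1.36% of all genes), by 5.63 for Cthrc1, 4.65 for Postn, 4.01 for Thbs2, 3.73 for Fndc1 and 2.59 for Sparc on the log2 scale (edgeR adjusted p from 0.00253 to 0.0148), and the fit of all 41 digits called 5 beside 0.447%. In the non-regenerative digits the same interval gave no call over all genes (1460 at an unadjusted p under 0.05), while DESeq2 called 5 of the 10 beside 2.85% of its genes, the fit of all 41 digits called 6 beside 9.18%, and the fit of 40 digits called 6 beside 2.14%, among them Eln (3.25, adjusted p = 0.000655). Without 14 days replicate 2 and with the 2 groups alone, edgeR called 8 of the 10 over this interval beside 5.09% of all genes, all but Tnc (0.26, adjusted p = 0.644) and Vcan (0.86, 0.117).

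No difference between intermediate and non-regenerative digits was called for any of the 10 genes at 0 hours, 24 hours, 14 days or 21 days. Over all genes edgeR called none at the first 3 of these times (491, 1472 and 270 at an unadjusted p under 0.05) and 0.648% at 21 days. At 24 hours Fndc1 was 1.80 higher (SE 0.39, edgeR adjusted p = 0.272), Eln 1.28 higher (SE 0.34, adjusted p = 0.322) in the intermediate digits on the log2 scale, and Tnc differed by -1.04 (SE 0.35, adjusted p = 0.384). The 24-hour digits of the groups did not overlap for Eln (26.8 to 77.7 against 21 to 24.7) or Fndc1 (4.11 to 7.40 against 1.77 to 2.61). Without intermediate 24 hours replicate 1 all 3 were called (edgeR adjusted p = 0.00354 for Eln, 0.0422 for Fndc1 and 0.0166 for Tnc), and DESeq2 called Eln and Fndc1 with all digits (0.0331 and 0.00807), beside 0.87% of all genes. That replicate is the 1 intermediate 24-hour digit of the earlier dates. The share of all genes without overlap between the groups at 24 hours is not given here, nor is the share called without that replicate.

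The test of a different course in the groups, the interaction of group and time over 24 digits, called none of 14768 genes in edgeR, with 1048 at an unadjusted p under 0.05, and DESeq2 called 3 genes, none among the 10. The lowest unadjusted values were those of Eln (edgeR adjusted p = 0.660) and Tnc (0.660). Over all 41 digits with time as a term, the labelled level of amputation was related to none of 14996 genes in edgeR (1244 at an unadjusted p under 0.05), and DESeq2 called 11 genes but none of the 10. The value for Eln was a log2 difference of 0.35 per 10 percentage points removed (SE 0.15, edgeR adjusted p = 0.562).

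The dates of the digits moved with several of the genes. In an edgeR fit over all 41 digits with the 13 groups as further terms, a test added after the values were seen, 6 of the 10 genes were lower in the digits of the later dates, beside 8.23% of all genes called in either direction. These were Postn (log2 difference -1.35, SE 0.27, adjusted p = 0.00110), Fndc1 (-1.26, SE 0.34, 0.0144), Fn1 (-1.02, SE 0.28, 0.0186), Tnc (-0.94, SE 0.25, 0.0144), Fbn1 (-0.90, SE 0.27, 0.0314) and Vcan (-0.89, SE 0.29, 0.0483). Cthrc1 (-0.59, edgeR adjusted p = 0.238), Thbs2 (-0.54, 0.139), Eln (0.04, 0.969) and Sparc (0.01, 0.987) were not called, and the same 6 were called without non-regenerative 14 days replicate 2, beside 14.2% of all genes. The median over the 10 genes was -0.89, and over all genes -0.05.

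Postn had the largest of these differences. At 14 days the 3 digits of the earlier dates in both groups held 3530, 3630 and 3743, and the 3 of the later dates 400, 1948 and 668. In 8 of the 9 groups with both periods, every later digit held less Postn than every earlier digit, and in 1 every later digit held more. The groups below and above were 7 and 1 for Fbn1, 6 and 1 for Fndc1, 6 and 0 for Vcan, and 2 and 3 for Sparc. Most of these groups set 1 digit of either period against 2 of the other, so such separation in any single group arises easily by chance. Its share over all genes was not computed. All non-regenerative 21-day digits are of the later and all intermediate 21-day digits of the earlier dates, so at 21 days group and date cannot be told apart. In the fit of all digits with the period as a term, the calls against 0 hours at 14 days in the non-regenerative digits were the same 7 genes as without it, and at 21 days they were Cthrc1, Thbs2, Postn (4.30, edgeR adjusted p = 0.000201), Sparc, Tnc and Fndc1. What the period stands for was not tested.

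**Figure D3:**
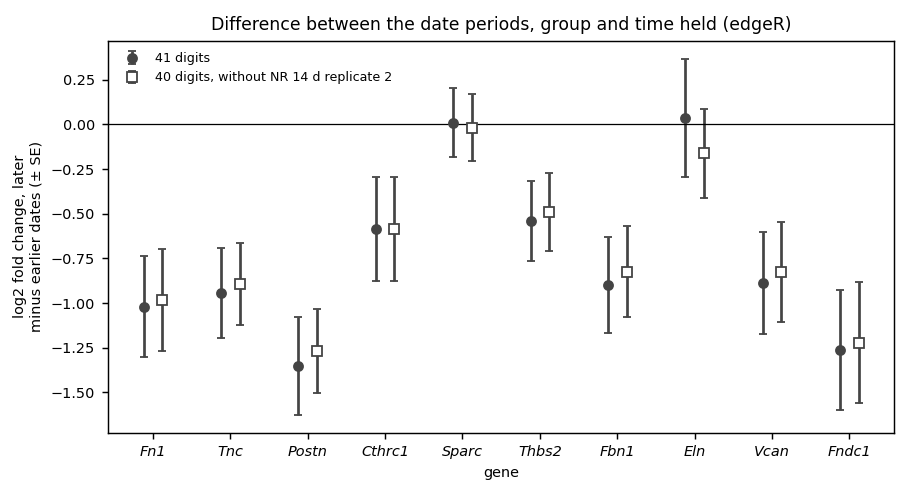
Log2 difference of each gene between digits of the later and of the earlier dates, with group and time held, from edgeR fits over 41 digits (circles) and over 40 digits without non-regenerative (NR) 14 days replicate 2 (squares), with bars of 1 SE. Postn is lowest at -1.35 and Fndc1 next at -1.26, while Sparc and Eln lie near 0.

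Markers of fibroblasts and of several other cell types moved with most of the genes. The summed level of 8 fibroblast markers was between 1423 and 2420 normalized TPM in the non-regenerative digits at 0 hours and between 451 and 1201 at 24 hours. It was between 15460 and 33840 after 14 days, and between 7357 and 16010 after 21 days. In the intermediate digits it was between 1198 and 3750 at 0 hours, between 1249 and 1715 at 24 hours, between 9780 and 24335 after 14 days and between 8917 and 19565 after 21 days. Most of this sum is Col1a1, Col1a2 and Col3a1, which encode fibrillar collagens and so are matrix genes themselves. The 5 markers that are no collagens (Pdgfra, Dpt, Pi16, Dpep1 and Twist2, summed after their values were seen) had means of 193 at 0 hours, 92.5 at 24 hours, 301 at 14 days and 258 at 21 days in the non-regenerative digits and of 193, 114, 175 and 214 in the intermediate digits. Pdgfra, a receptor that marks fibroblasts, had a mean of 17.1 at 0 hours and 27.0 at 14 days in the non-regenerative and of 21.9 and 27.7 in the intermediate digits. At 14 days against 0 hours Twist2 was also higher in both groups, and Dpt was lower in both (106 against 115 and 119 against 122). Pi16 and Dpep1 were lower in the intermediate digits (15.0 against 37.8 and 4.54 against 7.66). In the non-regenerative digits their means were higher (105 against 45.1 and 24.8 against 11.8), with digits from 4.51 to 267 and from 5.05 to 60.3. Pi16, Dpep1, Twist2 and the sum of the 5 were highest in the same digit, which also held the lowest Dpt and Pdgfra. The higher means of Pi16 and Dpep1 rest on that digit, and the mean sum of 301 is raised by it. The sum of the 5 there ran from 169 to 464 at 14 days and was not computed without replicate 2. None of the 8 markers was at 0 in all digits of a group. Their part in the course of the 10 genes was not tested.

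Over the 41 digits, Spearman's rho of a gene with the sum of 8 markers was 0.94 for Sparc, 0.91 for Postn and Cthrc1, 0.90 for Fndc1, 0.89 for Thbs2, 0.84 for Fn1, 0.76 for Fbn1 and Eln, 0.40 for Vcan and 0.28 for Tnc. With the 5 markers that are no collagens rho was 0.68 for Sparc, 0.63 for Postn and Fndc1, 0.58 for Cthrc1, 0.56 for Thbs2, 0.76 for Fn1, 0.78 for Fbn1 and -0.06 for Tnc. These are descriptions, since the digits share time points, dates and the scaling of each library. Other lists moved with the genes too. For the osteoblast list rho ran from 0.30 for Tnc to 0.75 for Sparc and Thbs2, with 0.74 for Fn1. It was at most 0.48 (Eln) for the smooth muscle and 0.15 (Sparc) for the skeletal muscle list. For the macrophage list rho ran from 0.45 for Eln to 0.79 for Fn1, with 0.74 for Fbn1 and 0.72 for Postn, and its summed level in the non-regenerative digits had a mean of 159 at 0 hours, 135 at 24 hours, 552 after 14 days and 213 after 21 days. For the endothelial list rho ran from 0.34 for Tnc to 0.79 for Fn1, with mean sums of 97.0 at 0 hours and 119 after 14 days. For the tendon list it was highest for Fndc1 (0.84) and Eln (0.75) and lowest for Tnc (0.18), and its mean sum was 13.7 at 0 hours, 5.19 at 24 hours and 81.0 after 14 days. All 10 genes had a negative rho with the keratinocyte list, from -0.28 for Eln to -0.69 for Vcan. The part of these cell types was not tested either. Tnc and Eln also moved with the neutrophil list (rho 0.54 and -0.60), whose sum of 6 markers had a mean of 21.4 at 0 hours and 1189 at 24 hours in the non-regenerative digits, with Mpo and Ly6g at or near 0.

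**Figure D4:**
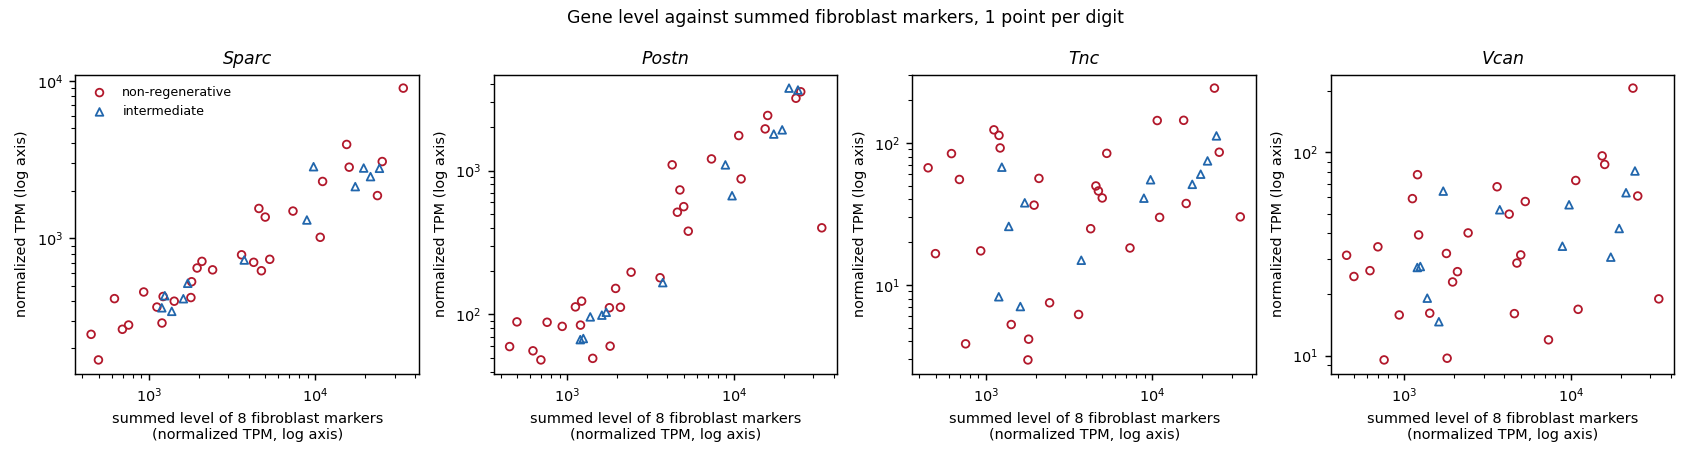
Level of 4 of the genes against the summed level of 8 fibroblast markers (both in normalized TPM on log axes), for Sparc, Postn, Tnc and Vcan, with 1 point per digit (red circles non-regenerative, blue triangles intermediate). Sparc follows the sum most closely (rho 0.94) and Tnc least (rho 0.28).

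Among themselves, the 10 genes formed 45 pairs with a median rho of 0.65 over the 41 digits, from -0.12 for Tnc and Eln to 0.91 for Cthrc1 and Thbs2. Postn and Thbs2 and also Cthrc1 and Sparc had a rho of 0.90. After the group means were taken off, the median was 0.60 and the closest pairs were Postn and Fbn1 (0.85) and Vcan and Fbn1 (0.83), while Postn and Sparc had 0.16. Sparc and Postn are thus a pair with like time courses and little joint variation among the digits of a group.

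**Figure D5:**
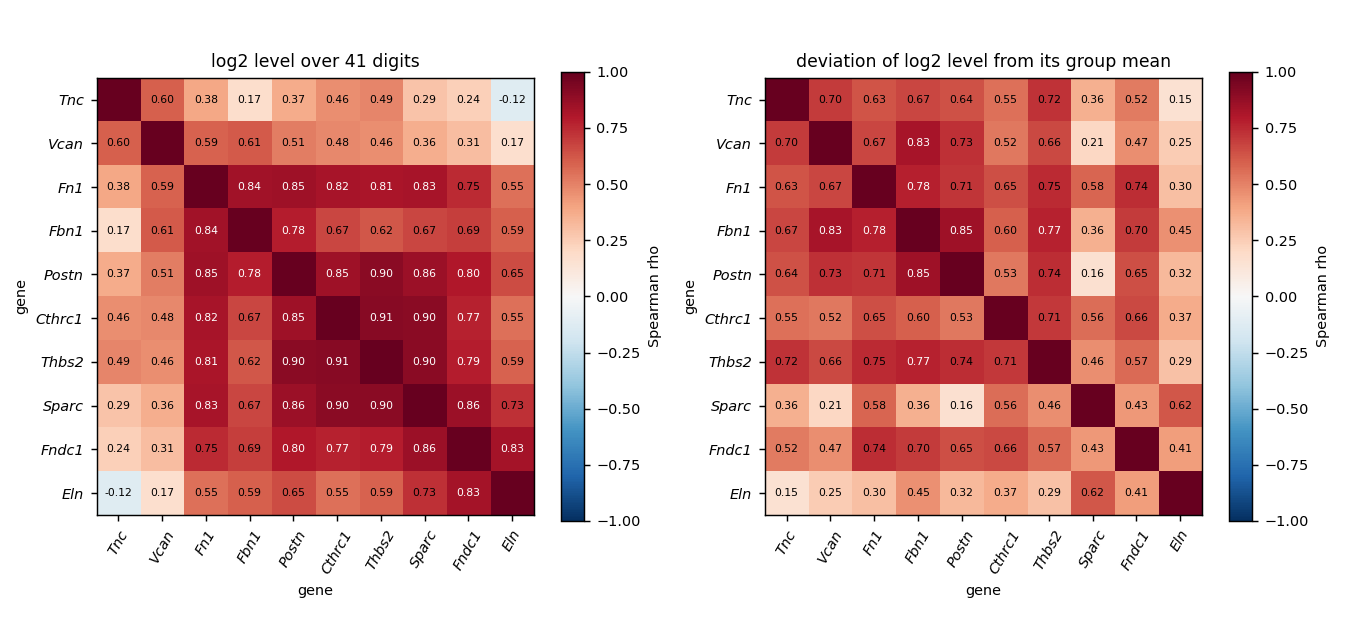
Spearman's rho between the 10 genes over 41 digits, for levels (left) and for deviations from the group mean (right). The block of Cthrc1, Thbs2, Postn and Sparc on the left is weaker on the right, where Postn and Fbn1 (0.85) and Vcan and Fbn1 (0.83) are highest.

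Among 13691 genes with a mean of at least 1 normalized TPM, the gene with the course most like that of Sparc was Col1a1 (rho 0.96), followed by Col11a1 and Col5a2. Fndc1 was most like Pdgfrl (0.96), Cthrc1 most like Ctsk (0.95), the cathepsin of osteoclasts and of some fibroblasts, Thbs2 most like Col12a1 (0.93) and Postn most like Col3a1 (0.92). Fn1 and Fbn1 shared Loxl2, a lysyl oxidase-like enzyme, as their most similar gene (0.92 and 0.93) and Vim as the second. Tnc was most like Actn1 (0.88), which encodes an actin cross-linker of adhesions, with Txndc5 and Pdpn next, Eln most like Olfml2b (0.88) and Vcan most like Parva (0.77).

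Related genes were taken from 4 lists. Of 19 other matricellular genes, 15 to 19 were tested per comparison. In the non-regenerative digits 2 rose and 5 fell at 24 hours, when 5.57% of all genes rose and 5.14% fell, and 2 rose at 21 days (0.394% of all genes). Tgfbi, an adhesive protein induced by TGF-beta, rose by 1.47 on the log2 scale at 24 hours (edgeR adjusted p = 0.00159), from a mean of 61.3 to 163 normalized TPM. Wisp1, a CCN family protein, rose by 4.84 at 21 days in the non-regenerative (edgeR adjusted p = 0.0324) and by 4.32 at 14 days in the intermediate digits (0.00107). Tnxb and Sparcl1 fell at 24 hours, by 1.10 and 1.51 on the log2 scale (edgeR adjusted p = 0.0219 and 0.00148). Over time, 9 of the 19 changed in non-regenerative digits (7.62% of all genes) and 5 in intermediate ones (6.21%).

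Of 15 other elastic fibre genes, 9 changed over time in non-regenerative digits and 7 in intermediate ones, beside the same shares of all genes. Ltbp4, which is needed to assemble elastic fibres, fell at 6, 12 and 24 hours and 3 days, by 1.10, 1.25, 1.05 and 1.30 on the log2 scale (edgeR adjusted p = 0.0346, 0.0292, 0.0242 and 0.0213), the same times as Eln. Mfap4 fell by 2.03 at 24 hours (edgeR adjusted p = 0.0107) and rose by 2.71 at 21 days (0.0232), while Mfap2 rose by 4.03 at 21 days (0.0448). At 21 days 5 of the 15 rose in the non-regenerative digits (0.394% of all genes), and 5 at 14 days (1.49%) and 4 at 21 days (1.23%) in the intermediate digits.

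Of 14 other genes of the provisional matrix and of hyaluronan, 9 to 10 were tested per comparison with 0 hours. The hyaluronan synthases Has2 and Has3 and the hyaluronan-binding Tnfaip6 rose at 6, 12 and 24 hours in the non-regenerative digits (3.23%, 6.76% and 5.57% of all genes), at 24 hours by 2.49, 3.62 and 3.37 on the log2 scale (edgeR adjusted p = 0.00902, 0.000303 and 0.00746). Fgg, the fibrinogen gamma chain, was listed at 0 in all 6 digits at 0 hours and was between 8.79 and 14.2 at 24 hours in the non-regenerative digits. None of the list was called at 7, 14 or 21 days in the non-regenerative digits, and in the intermediate digits Bgn, Fmod and Lum, named here after their values were seen, rose at 14 and 21 days (1.49% and 1.23% of all genes).

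Of 12 receptors, 3 rose and 2 fell at 24 hours (5.57% and 5.14% of all genes) and none was called at 3, 7, 14 or 21 days in the non-regenerative digits. Cd44, the hyaluronan receptor, had means of 149 at 0 hours, 633 at 12 hours and 514 at 24 hours and rose by 1.82, 2.06 and 1.90 on the log2 scale at 6, 12 and 24 hours (edgeR adjusted p = 0.0127, 0.00113 and 0.00256). The fibronectin receptor subunits Itga5 and Itgb1 rose by 2.16 and 1.59 at 24 hours (edgeR adjusted p = 0.00776 and 0.00782). In the intermediate digits 1 receptor, Itga5, rose at 14 days (1.21, adjusted p = 0.0422), beside 1.49% of all genes.

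Macrophages in culture expressed 9 of the 10 genes enough to be tested, and Eln was at most 0.230 normalized TPM there. Fn1 was at 298, 411 and 344 in M0, 132, 121 and 133 in M1 and 473, 470 and 510 in M2 macrophages. Tnc was at 47.8, 62.8 and 50.9 in M0, 74.9, 71.3 and 83.2 in M1 and 132, 134 and 134 in M2. Cthrc1 stayed between 1.44 and 6.01 and Fndc1 at or below 1.24. Against M0, 4 genes were called lower in M1 (Thbs2 by 3.06, Fn1 by 1.43, Fbn1 by 1.32 and Postn by 1.13 on the log2 scale) and Fndc1 was 2.70 higher, beside 46.1% of all genes called. In M2, Vcan (1.64), Fbn1 (1.5), Tnc (1.24) and Cthrc1 (1.18) were higher, beside 22.3% of all genes. The 5 of 9 genes called in M1 are near the share of all genes there. The tables of digits and macrophages were normalized separately, and levels are not compared between them.

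In GRCm38 the genes lie at Fn1 chr1:71585520-71653200, Vcan chr13:89655312-89742509, Tnc chr4:63959785-64047015, Postn chr3:54361109-54391037, Cthrc1 chr15:39076932-39087121, Sparc chr11:55394500-55423183, Thbs2 chr17:14665500-14694235, Fndc1 chr17:7738569-7827302, Fbn1 chr2:125300594-125507993 and Eln chr5:134702593-134747323. Postn and Cthrc1 are on the plus and the other genes on the minus strand.

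Start site regions from RefSeq (GRCm38.p6, 250 bases before to 50 after a start) were given for 7 of the 10 genes in 9 windows, with none for Fn1, Cthrc1 and Eln. Only the 250 bases before each start were searched, on both strands, for TGANTCA (AP-1), GGAATG (TEAD) and CAGAC (SMAD), none of which contains another. No window of the 7 genes held the first (6.75% of 32851 mouse windows do) or the second (12.6%), and 4 genes held CAGAC (Postn, Tnc, Sparc and Thbs2), which 42.2% of all windows hold. The 250 bases before a start of 2 genes with a late rise and of Tnc, which rose first, are shown 5′ to 3′ on the strand of the gene, with CAGAC or its reverse complement GTCTG in capitals. The windows are chr3:54359017-54359266 (Postn, plus strand, a start upstream of the annotated gene), chr17:14694263-14694512 (Thbs2, minus strand) and chr4:64047016-64047265 (Tnc, minus strand, no match in these bases), and none overlaps an annotated exon.
Postn: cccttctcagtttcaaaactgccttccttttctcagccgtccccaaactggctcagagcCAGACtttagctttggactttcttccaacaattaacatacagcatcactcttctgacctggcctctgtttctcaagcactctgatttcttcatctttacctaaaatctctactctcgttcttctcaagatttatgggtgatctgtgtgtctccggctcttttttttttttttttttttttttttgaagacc
Thbs2: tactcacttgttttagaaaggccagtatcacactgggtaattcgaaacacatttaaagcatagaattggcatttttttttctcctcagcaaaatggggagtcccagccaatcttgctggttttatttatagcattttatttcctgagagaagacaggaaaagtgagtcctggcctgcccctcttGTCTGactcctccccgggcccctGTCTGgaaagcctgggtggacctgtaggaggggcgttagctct
Tnc: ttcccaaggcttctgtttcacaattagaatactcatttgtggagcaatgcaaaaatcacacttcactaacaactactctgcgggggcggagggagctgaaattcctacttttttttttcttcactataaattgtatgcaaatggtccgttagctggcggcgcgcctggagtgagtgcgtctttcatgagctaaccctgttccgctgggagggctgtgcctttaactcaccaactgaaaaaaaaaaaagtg
In these, CAGAC starts 191 bases before the start of Postn on the sense strand, and GTCTG lies 66 and 43 bases before that of Thbs2. Postn and Tnc each have another window. That of Postn at the annotated start, chr3:54360857-54361106, held no match, while that of Tnc, chr4:64046937-64047186, held GTCTG 70 bases before its start. Whether a match is seen thus depends on the window, and no contrast of early and late genes follows. The bases after the start were not found in transcripts of the gene for the Postn and Thbs2 windows shown. A match of 5 letters is a description of the sequence and not evidence that a factor binds there.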

How the data were processed

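RNA was sequenced by ligation-mediated sequencing (LM-Seq) of poly(A) RNA, single-end, and reads were aligned to mm10 and quantified by the authors with RSEM 1.2.3. They deposited expected counts per gene and TPM scaled by median-by-ratio normalization, here called normalized TPM, a signal whose sum differs between libraries. For this report 26 gene names turned into dates were restored, and expected counts were rounded. Genes passing edgeR's filterByExpr were tested with edgeR 4.0.16 (quasi-likelihood, TMM factors, R 4.3.3), 2 groups at a time. Calls needed an adjusted p (Benjamini-Hochberg over all genes tested) under 0.05 and a fold above 2 between mean normalized counts, 1 added to each. SE is the log2 fold change over the square root of F. EBSeq, the tool in the study's methods, was not used here. Spearman's rho used log2(normalized TPM + 1). Alternatives used DESeq2 1.42.0, limma 3.58.1 on log2(normalized TPM + 1), other size factors, no filter, no fold threshold, 1 fit of all digits, a period term and each digit left out. The edgeR tests were also run on simulated counts with the same spread for all genes and no outlying library. That check does not show how the tests behave on digits as variable as these. The 10 genes and the gene lists were chosen with earlier results of these data known. From each other list at most 4 genes are named, chosen by how many comparisons called them, and others are marked as named after their values were seen. Macrophage totals were between 15683424 and 27904773. Macrophages of one number in M0, M1 and M2 did not deviate together (correlations of -0.0747 to 0.0664), so numbers were not treated as pairs.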

Additional observations from a re-analysis of the deposited data

Results flagged for a closer look

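Among the 5 non-regenerative digits at 7 days, the highest digit stood apart from the rest for 2 of the 10 genes, by the gap to the next digit as a share of the whole range (limit 0.71 for 5 digits). Fn1 reached 1930 normalized TPM in replicate 4, with a gap of 0.862 of the range. Thbs2 reached 203 in the same digit, with a gap of 0.712. For normally distributed values, chance alone gives such a gap at either end in about 1 of 20 groups. Here levels without a log scale were used for 10 genes that move together, so that rate need not hold. Leaving that digit out is among the fits behind the ranges given for 7 days.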

How the results depend on the processing

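With all 41 digits in 1 fit the number of the 10 genes called against 0 hours in the non-regenerative digits became 0 at 6 hours, 1 at 12 and 2 at 24 hours, 4 on day 7 and 7 on day 14, and 0 between 24 hours and 3 days and 6 between 24 hours and 14 days. With the period as a further term these were 0 at 6 and 1 at 12 hours, 4 on day 7, 7 on day 14, and 0 and 7 for the intervals from 24 hours. With 40 digits, without 14 days replicate 2, they were 1 at 6 and 2 at 24 hours, 4 on day 7, 6 on day 14, and 1 and 6 for those intervals. DESeq2 called 5 at 7 days, 6 at 14 days and 5 between 24 hours and 14 days, 2 in the intermediate digits at 24 hours, 2 between the groups at 24 hours and 8 between 24 hours and 14 days in the intermediate digits. It gave no adjusted p for Eln over time in the non-regenerative digits. With no low count filter 2 were called at 7 days, 1 at 14 days, 3 between 24 hours and 14 days and 1 in the intermediate digits at 24 hours. Limma called 1 at 6 hours, 2 at 14 days, 3 at 21 days, 1 between 24 hours and 3 days and 3 between 24 hours and 14 days. Without a fold threshold 8 were called in M1 and 7 in M2 macrophages. Shares of all genes called are given above for the fit of all 41 digits and for some counts of the other settings. Elsewhere they are not given, and a higher count there cannot be told apart from more calls over all genes. Why these counts moved was not tested.

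Leaving out 1 digit at a time, the count against 0 hours in the non-regenerative digits ran from 1 to 2 at 6 hours, 1 to 3 at 12 hours, 3 to 4 at 24 hours, 1 to 4 at 3 days, 0 to 3 at 7 days, 0 to 6 at 14 days (6 without replicate 2) and 1 to 5 at 21 days. It ran from 0 to 8 between 24 hours and 3 days and from 0 to 8 between 24 hours and 14 days. In the intermediate digits it ran from 2 to 6 at 14 days, 4 to 6 at 21 days and 3 to 7 between 24 hours and 14 days, and between the groups from 0 to 3 at 24 hours. Over time it ran from 7 to 8 in the non-regenerative and 6 to 8 in the intermediate digits, and in macrophages from 4 to 6 for M1 and 3 to 5 for M2. The other counts were 0 throughout. For fits with a digit left out, the share of all genes called is given above only without non-regenerative 14 days replicate 2.

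The replicate block for the macrophages gave 5 calls in M1 and 4 in M2, as without it. No paired analysis was possible for the digits because their numbers were given in accession order. No value of the 10 genes that was called in either of 2 settings changed its sign between them. Values near 0 that were not called did, among them the period difference of Eln (0.04 with 41 digits, -0.16 without 14 days replicate 2) and of Sparc (0.01 and -0.02). With 3 digits in most groups and 1 library of 1468749 counts, differences of low genes are the least certain.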

Other observations

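Markers of osteoblasts, the bone-forming cells, were examined beside the matrix genes. In the intermediate digits 7 of 8 were called higher at 14 days (1.49% of all genes tested) and 6 of 8 at 21 days (1.23%) against 0 hours, and none at 14 or 21 days in the non-regenerative digits, where edgeR called no gene of any kind at 14 days. Ibsp, which encodes bone sialoprotein, rose by 3.98 on the log2 scale at 14 days in the intermediate digits (edgeR adjusted p = 0.0152), and Runx2, a transcription factor of osteoblasts, by 1.93 (0.00494). The summed level of the 8 markers was 1764, 908 and 767 normalized TPM in the 3 intermediate and 712, 136 and 243 in the 3 non-regenerative digits at 14 days, with no overlap. No marker was called between the groups at any time or in the interaction of group and time, so a difference between the groups was not shown.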
